A study of Mus musculus with 36 samples.

Results

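The NADH-oxidising module (N module) of respiratory complex I was followed through its 8 nuclear-encoded subunits in brain RNA of Ndufs4 knockout and wild-type mice. The members were Ndufv1, Ndufv2, Ndufs1, Ndufs4, Ndufs6, Ndufa12, Ndufv3 and Ndufa2. They were chosen as the subunits of the module in which Ndufs4 itself sits, were matched to the table by gene symbol, and make up 8 of its 56980 gene rows. All 8 passed the filter on low counts, which left 25601 genes for testing.

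The series holds 36 samples of polyA-selected RNA from mice aged 37 to 45 days, with the genotype label Ndufs4 knockout (KO) or wild type (WT). The mice received vehicle or CP2, a small-molecule inhibitor of complex I, by gavage over 3 days. The tissue label is brain, while the design text names hippocampus and cortex and does not say what each sample held. Each title also carries the letter F or M. Genotype, treatment and letter define 8 groups. KO with vehicle, KO with CP2, WT with vehicle and WT with CP2 had 5 samples each under the letter F. Under the letter M, both genotypes had 5 samples with CP2 and 3 with vehicle. The labels name neither the strain nor the Ndufs4 allele, give no other allele or agent, and do not say whether each sample came from 1 animal, so p-values measure the spread between these samples. The design asks how the knockout and the inhibitor, alone and together, change brain RNA. In bulk tissue, fewer cells of a type and less RNA per cell cannot be told apart.

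Complex I takes electrons from NADH and passes them to ubiquinone while it moves protons across the inner mitochondrial membrane. The N module is the tip of its matrix arm, where NADH binds, a flavin takes up its electrons and a chain of iron-sulfur clusters carries them on to the quinone-binding Q module. Ndufv1, Ndufv2 and Ndufs1 are the core subunits that hold the flavin and these clusters, and the other members are accessory subunits. Ndufs4 sits at the junction with the Q module and stabilises the attachment of the N module, which is joined last when the complex is built. Its loss in humans and mice causes Leigh syndrome or a disease like it, in which neurons and glia of the brain are affected.

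Upstream sequences are shown for Ndufs6, Ndufv3 and Ndufa12, whose levels moved together from sample to sample, and for Ndufs4, whose level did so less. Each is the 250 bases before the annotated start of transcription on the gene's own strand, from RefSeq on build GRCm38.p6, and RefSeq promoters were matched for 6 of the 8 members. Capitals mark a match to the motif of nuclear respiratory factor 1 (NRF1) in Ndufs6, and matches to GGGCGG, the motif of SP1, or its reverse complement in Ndufv3 and Ndufa12. Both strands were searched, and no 2 matches overlapped. The windows are chr13:73328483-73328732 (minus strand) for Ndufs6, chr17:31519865-31520114 (plus strand) for Ndufv3, chr10:94198785-94199034 (plus strand) for Ndufa12 and chr13:114388095-114388344 (minus strand) for Ndufs4.
Ndufs6: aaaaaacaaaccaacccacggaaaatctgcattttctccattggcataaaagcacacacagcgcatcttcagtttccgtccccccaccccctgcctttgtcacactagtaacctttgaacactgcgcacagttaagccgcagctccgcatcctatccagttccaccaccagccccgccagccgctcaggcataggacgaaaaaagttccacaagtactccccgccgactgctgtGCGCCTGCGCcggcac
Ndufv3: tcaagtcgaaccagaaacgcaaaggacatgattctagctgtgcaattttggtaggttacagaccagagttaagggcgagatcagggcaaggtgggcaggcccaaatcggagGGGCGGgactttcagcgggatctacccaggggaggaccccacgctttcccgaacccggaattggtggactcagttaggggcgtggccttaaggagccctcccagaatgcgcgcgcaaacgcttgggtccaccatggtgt
Ndufa12: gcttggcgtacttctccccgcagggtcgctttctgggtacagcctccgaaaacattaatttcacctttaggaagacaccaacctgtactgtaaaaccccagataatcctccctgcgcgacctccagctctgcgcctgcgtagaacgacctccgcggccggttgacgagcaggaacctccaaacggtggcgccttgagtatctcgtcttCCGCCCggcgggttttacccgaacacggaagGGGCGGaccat
Ndufs4: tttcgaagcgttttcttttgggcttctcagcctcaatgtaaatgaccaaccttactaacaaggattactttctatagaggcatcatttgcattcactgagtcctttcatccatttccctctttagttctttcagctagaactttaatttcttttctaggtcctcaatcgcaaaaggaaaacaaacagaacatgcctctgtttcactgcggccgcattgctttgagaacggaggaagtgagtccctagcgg
The NRF1 match in Ndufs6 lies at bases -16 to -7 from the start, and 3.738% of 32851 promoter windows of the same length hold an NRF1 match. SP1 matches were found in Ndufv2, Ndufv3 and Ndufa12, and 32.74% of all windows hold one. The ETS motif CCGGAAG (6.907% of all windows), the YY1 motif AAGATGGCG (0.6058%) and the estrogen-related receptor motif TCAAGGTCA (0.3866%) were found in 0 of the 6 windows. The 6 windows ranged from 42.0% GC in Ndufs4 to 68.0% GC in Ndufv2.

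Gene counts ranged from 46124548 to 88559920 per sample, and the smallest count of any member in any sample was 738, for Ndufs6. Neuronal, astrocyte, oligodendrocyte, microglial and endothelial markers were detected in all 36 samples, as were 6 of 6 hippocampal and 6 of 6 striatal markers. The share of reads outside annotated genes differed between groups, from 5.99% ± 0.740 (SD, n = 5) in WT vehicle F to 12.1% ± 0.885 (SD, n = 3) in KO vehicle M. Xist was at 439 to 798 CPM (counts scaled to one library size, with edgeR's TMM, the trimmed mean of M values) in the F samples and at most 0.833 CPM in 15 of the 16 M samples. The KO CP2 M sample L291 held 47.3 CPM of Xist beside 80.8 CPM of the Y-linked Ddx3y, which did not exceed 0.214 CPM in any F sample. Calls of members in M that use L291, and that of Ndufaf2 in KO M, are therefore also given without it. Most other results that use L291 are given with it in the fit.

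The members differ in level and, more so, in how much they vary. Per kilobase of the longest annotated transcript, the median level over the 36 samples was 86.3 CPM per kb for Ndufa2, a small accessory subunit with a thioredoxin-like fold, and 77.0 CPM per kb for Ndufv1, the subunit that binds NADH and the flavin. Ndufv2, its partner core subunit, followed at 69.0 CPM per kb, then Ndufs1 at 49.7, Ndufa12 at 48.2, Ndufs6 at 36.1, Ndufv3 at 23.1 and Ndufs4 at 23.0 CPM per kb. The ranges over samples of all neighbours in this order overlap, those of Ndufv2 and Ndufs1 only just. The range of Ndufs6, from 18.9 to 67.0 CPM per kb, overlaps that of every other member. That of Ndufa2, from 49.2 to 140, also overlaps those of Ndufs1 and Ndufa12. With the union of all annotated exons as the length, Ndufs1 drops to 16.3 CPM per kb and stands beside Ndufv3 (14.6) and Ndufs4 (14.4), so its place in the order depends on which transcripts the brain uses. By that length Ndufv2 (54.5) also stands above Ndufv1 (48.5).

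The core subunits varied less over the samples than the accessory subunits did. The coefficient of variation of CPM over all 36 samples was 5.15% for Ndufs1, the largest subunit of the complex, 9.07% for Ndufv1 and 9.64% for Ndufv2. It was 13.6% for Ndufa12, 16.5% for Ndufv3, 22.3% for Ndufs4, 22.4% for Ndufa2 and 24.6% for Ndufs6. Ndufs4 differs from the last 2 in kind: within KO its coefficient was 11.01% and within WT 12.6%, while Ndufa2 stayed at 17.6% and 27.0% and Ndufs6 at 20.2% and 28.5%.

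**Figure D1:**
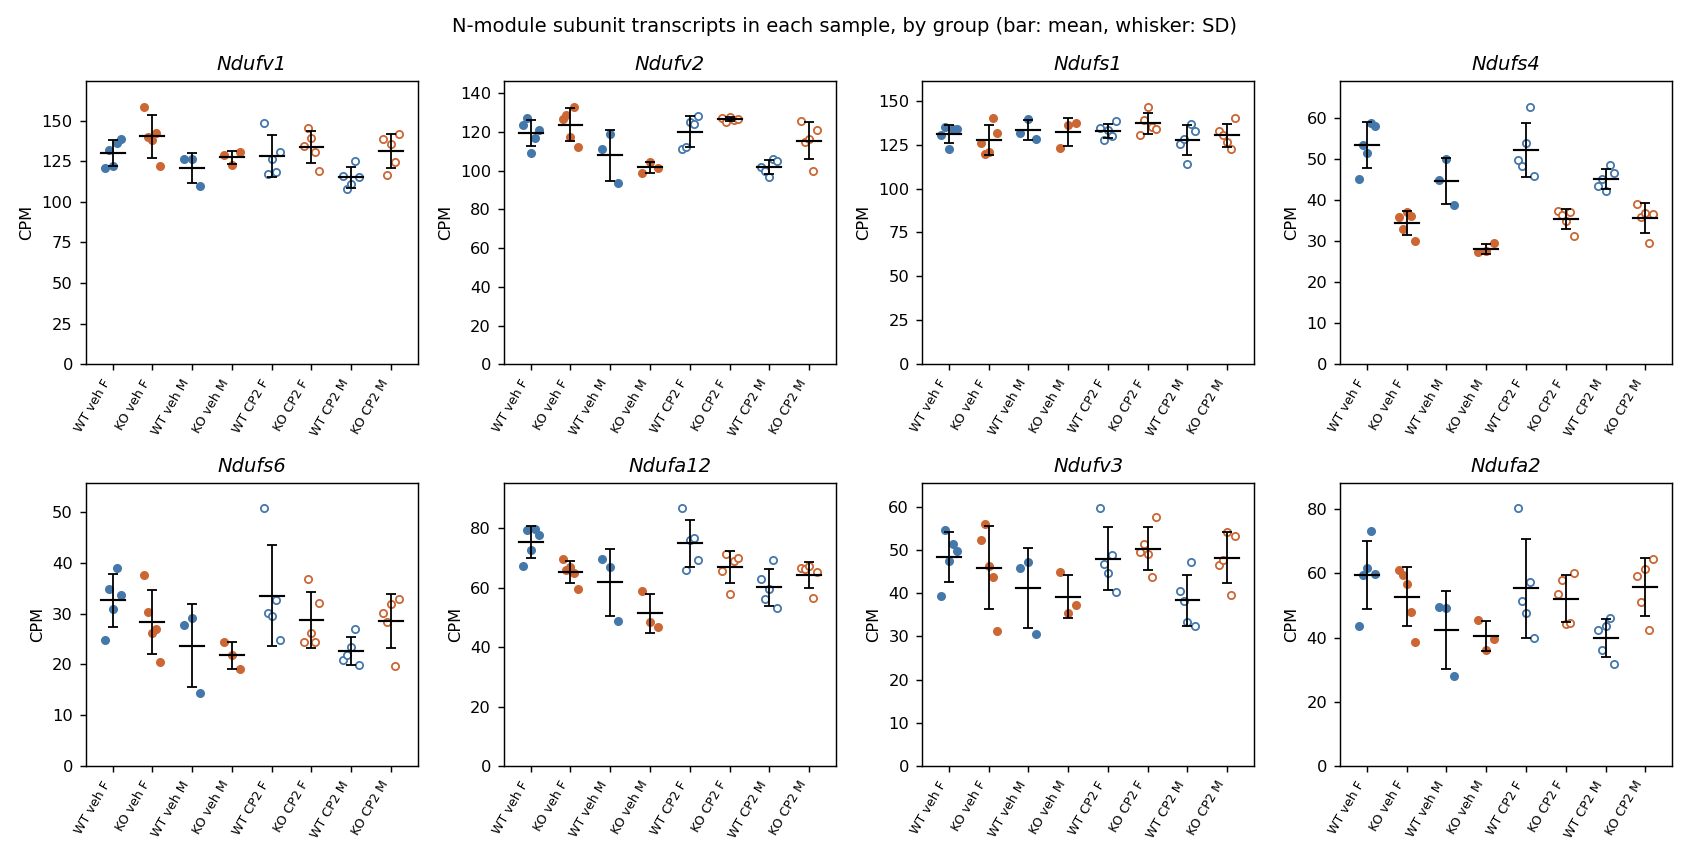
CPM of each member in every sample (points), with the mean (bar) and SD (whisker) of each of the 8 groups of genotype, treatment and title letter; blue is WT, orange is KO, filled points are vehicle, open points are CP2, and each panel starts at 0. In the Ndufs4 panel every KO sample, at most 39.1 CPM, lies below the WT samples of its stratum, while Ndufs1 stays between 114 and 147 CPM throughout.

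Ndufs4, the targeted gene, was lower in KO in each of the 4 combinations of treatment and letter, and no other member was called in any single one of them. With vehicle in F, Ndufs4 was at 35.9, 33.0, 37.1, 36.1 and 30.2 CPM in KO and at 45.2, 53.5, 51.5, 58.9 and 58.0 CPM in WT. With vehicle in M it was at 27.4, 27.5 and 29.5 CPM in KO and at 44.9, 50.1 and 38.9 CPM in WT. The 3 KO vehicle M samples were the 3 lowest of all 36, and neither pair of groups overlapped. Under CP2 in F it was at 37.4, 36.4, 34.8, 37.1 and 31.3 CPM in KO and at 49.9, 48.3, 54.0, 62.8 and 45.9 CPM in WT. Under CP2 in M it was at 39.1, 35.8, 36.9, 29.6 and 36.7 CPM in KO and at 43.6, 45.2, 42.3, 48.5 and 46.5 CPM in WT. These groups did not overlap either, and the gap between the highest KO and the lowest WT sample was narrowest here, from 39.1 to 42.3 CPM.

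Averaged over the 4 strata with equal weight, Ndufs4 fell by 0.55 on the log2 scale (SE 0.046, 95% interval -0.64 to -0.46, adjusted p = 1.17e-10, edgeR's quasi-likelihood test with Benjamini-Hochberg adjustment over all genes), which is -31.7%. By stratum the change was -35.6% in F and -36.9% in M with vehicle, and -32.1% in F and -21.2% in M under CP2. Each was called at an adjusted p under 0.05 in the same test, with adjusted p = 2.83e-05, 0.00895, 0.000492 and 0.00611 in that order, and 1 of 8 members was called in each stratum. Over all tested genes the shares called were 4.96%, 0.516%, 2% and 9.99%. Ndufs4 was also the 1 member of 8 whose KO and WT samples did not overlap in each stratum, beside 4.7%, 20.9%, 3.02% and 11.1% of all tested genes. The call in M with vehicle, 3 samples against 3, was lost without the WT samples L285 (adjusted p = 0.0513) or L300 (adjusted p = 0.0599). Without L291 the change in M under CP2 was -0.35 (adjusted p = 0.0134). With vehicle in M, the summed level of 7 neuronal markers was 5353 to 5557 CPM in KO and 4463 to 4764 CPM in WT, and that of the 6 hippocampal markers was 316.8 to 390.9 and 232.0 to 259.1 CPM. The 6 oligodendrocyte markers summed to 7825 to 9218 CPM in KO and 9698 to 10307 CPM in WT. The 5 red-cell markers summed to 38.6 to 87.3 and 114.5 to 647.3 CPM. KO and WT did not overlap in any of these lists and overlapped in the other marker lists. The part of these markers in the M values was not tested.

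KO samples still held Ndufs4 at 27.4 CPM or more, and counts over a whole gene do not show from which part of the transcript they came. Under CP2 the knockout's effect differed between the letters by -0.21 on the log2 scale (F minus M, SE 0.12, adjusted p = 0.418 in edgeR's quasi-likelihood test), so the smaller change in M was not shown to differ from that in F.

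Set against the rest of its module within each sample, Ndufs4 separated KO from WT over the whole series. The log2 CPM of Ndufs4 minus the mean log2 CPM of the other 7 members was -1.05 ± 0.114 (SD, n = 18) in KO, from -1.29 to -0.89, and -0.49 ± 0.135 (SD, n = 18) in WT, from -0.85 to -0.26. No KO sample overlapped a WT sample across all 36. The group means of this difference ran from -1.103 to -1.01 in KO and from -0.52 to -0.42 in WT. This is a description, as the knockout fixes its direction.

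**Figure D2:**
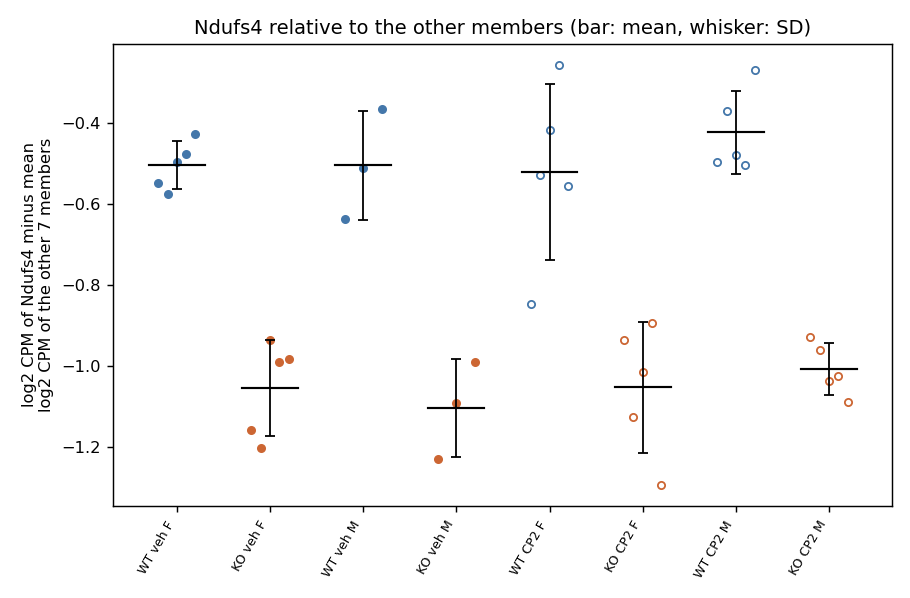
The log2 CPM of Ndufs4 minus the mean log2 CPM of the other 7 members in each sample (points; blue WT, orange KO, filled vehicle, open CP2), with the mean (bar) and SD (whisker) per group. The highest KO sample is at -0.89 and the lowest WT sample at -0.85, and KO vehicle M and KO CP2 M, which differ in CPM, lie at -1.103 and -1.01.

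Over all strata 3 of the 8 members were called between KO and WT, beside 16.2% of all tested genes. Under each of the 5 other settings tried 2 were called, Ndufs4 with Ndufv1 in 4 of them and with Ndufa12 in 1. As fitted, Ndufs4 and Ndufa12 fell and Ndufv1 rose, where 8.61% of all tested genes fell and 7.62% rose. The median over the 8 members was 0.02 on the log2 scale, and that over all tested genes was 0.02.

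Ndufa12, an accessory subunit that joins late and takes the place of the assembly factor Ndufaf2, was the other member that fell. With vehicle in F it was at 69.6, 66.1, 66.9, 64.8 and 59.4 CPM in KO and at 67.2, 79.3, 72.7, 79.6 and 77.9 CPM in WT. With vehicle in M it was at 59.0, 48.6 and 46.7 CPM in KO and at 69.8, 67.0 and 48.8 CPM in WT. All 8 KO samples lay below the WT mean of their letter, but the groups overlapped through 1 WT sample in each letter, L252 in F and L303 in M. Under CP2 it was at 66.9 ± 5.42 CPM (SD, n = 5) in KO and 75.0 ± 7.95 (SD, n = 5) in WT in F, and at 64.4 ± 4.37 (SD, n = 5) and 60.2 ± 6.25 (SD, n = 5) in M, where KO was the higher.

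Ndufa12 fell by 0.13 on the log2 scale over all strata (SE 0.047, 95% interval -0.23 to -0.04, adjusted p = 0.0407) and by 0.24 with vehicle over both letters (SE 0.070, adjusted p = 0.0351), both in edgeR's quasi-likelihood test. With vehicle 2 of 8 members were called, both lower, beside 6.67% of all tested genes in either direction and 3.8% lower. These calls lie near the threshold. That over all strata was lost in 4 of the 5 other settings tried (adjusted p from 0.05004 to 0.0808) and in 20 of the 36 fits that each left out 1 sample. That with vehicle was lost in 10 of 16 such fits, and in a fit that adjusts for the share of reads outside genes the change was -0.17 (adjusted p = 0.340).

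Ndufv1, the subunit where NADH is oxidised, went the other way. Its CPM was 134 ± 10.6 (SD, n = 18) in KO, from 116 to 159, and 124 ± 10.8 (SD, n = 18) in WT, from 108 to 149. The ranges overlap widely, and the KO mean was above the WT mean in each of the 4 strata. Over all strata it rose by 0.11 on the log2 scale (SE 0.038, 95% interval 0.03 to 0.19, adjusted p = 0.0430 in edgeR's quasi-likelihood test), or 7.89%. Without a filter on low counts the adjusted p was 0.0774, and the call held in 20 of 36 fits that left out 1 sample. In no single stratum was it called.

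The other 5 members were not called between KO and WT, and for the core subunits the intervals are narrow. Over all strata Ndufs1 differed by 0.01 on the log2 scale (95% interval -0.05 to 0.07, adjusted p = 0.908) and Ndufv2, which carries an iron-sulfur cluster beside the flavin, by 0.06 (-0.01 to 0.12, adjusted p = 0.299). The intervals of the accessory subunits are wider. Ndufv3, a small subunit made in tissue-specific forms by alternative splicing, differed by 0.06 (-0.08 to 0.21), the zinc-binding Ndufs6 by -0.05 (-0.26 to 0.16) and Ndufa2 by 0.04 (-0.15 to 0.23). Without the WT vehicle M sample L303 the value of Ndufa2 became -0.02. The annotation places exons of Tmco6 over 11.5% of the exon bases of Ndufa2, of Mrpl36 over 3.34% of those of Ndufs6 and of Ino80dos over 6.05% of those of Ndufs1, all on the opposite strand, and Eef1b2 shares 9 bases with Ndufs1. Whether the counting used strand is not given in the sources used here, so part of these members' counts is uncertain.

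**Figure D3:**
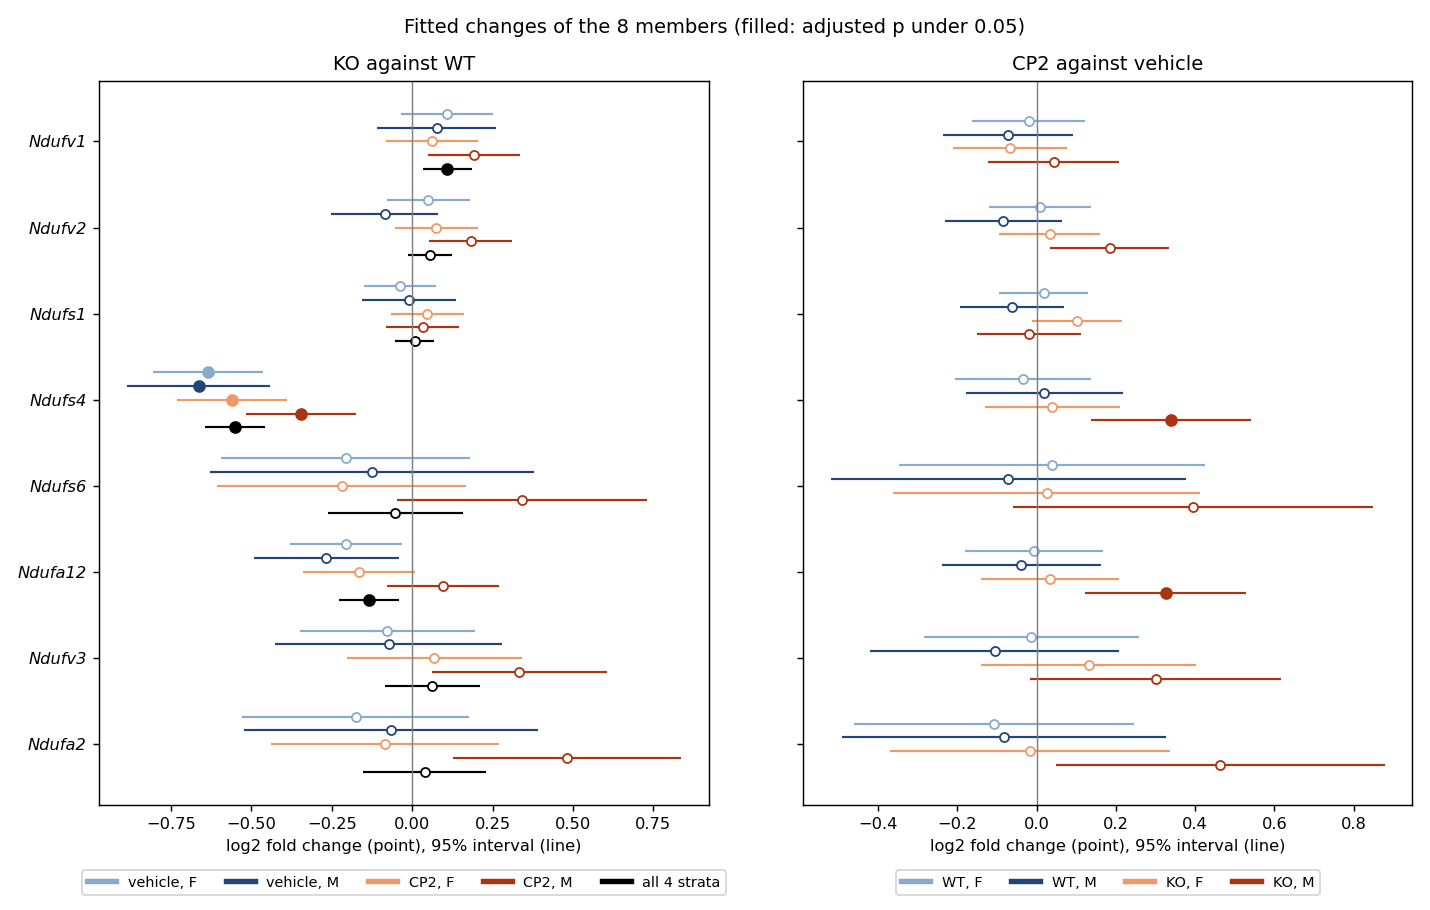
Fitted log2 fold changes (points) with 95% intervals (lines) of the 8 members, for KO against WT in the 4 strata and over all of them (left) and for CP2 against vehicle in the 4 combinations of genotype and letter (right); filled points have an adjusted p under 0.05. Ndufs4 lies between -0.66 and -0.34 in every KO against WT stratum, and the KO M points on the right stand highest for every member but Ndufs1.

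Under CP2 averaged over the letters, Ndufs4 was the 1 member of 8 called between KO and WT (-0.45, SE 0.060, adjusted p = 3.21e-06 in edgeR's quasi-likelihood test), beside 11.6% of all tested genes. Ndufv2 came next at 0.13 (SE 0.045, adjusted p = 0.0552) and was called by DESeq2, with its size factors, with a filter at a mean of 1 CPM, and without the KO CP2 M sample L298 or the WT CP2 F sample L311. Ndufv1 (0.13, adjusted p = 0.0952) was called with that filter and without the WT CP2 F sample L228. In M under CP2, 7 of the 8 members, all but Ndufs4, were higher in KO than in WT by 0.03 to 0.48 on the log2 scale, with adjusted p of 0.0604 or more. Ndufa2 was the highest of these, at 59.2, 51.2, 61.4, 42.3 and 64.5 CPM in KO and 42.4, 36.01, 43.5, 46.1 and 31.7 CPM in WT (0.48, SE 0.17, adjusted p = 0.0769 in the same test). All 5 KO samples lay above the WT mean, and 1 of them, L298, overlapped the WT samples. Without L291 the 1 further call in M was Ndufv1 (0.23, adjusted p = 0.0432). Without L298, Ndufa2 and Ndufv2 were called, and without the WT sample L267, Ndufv1 and Ndufv3 were. In M under CP2 the share of reads outside genes was 5.18% to 9.06% in KO and 9.05% to 13.2% in WT. With it as a covariate 862 genes were called, beside 2558 without it. The 6 astrocyte markers summed to 1893 to 3146 CPM in KO and 1313 to 1654 CPM in WT. The 6 microglial markers summed to 256.1 to 326.3 and 204.1 to 254.1 CPM. KO and WT overlapped in the other marker lists. The part of these markers in the M values was not tested.

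In WT no member's change with CP2 passed the test. In edgeR's quasi-likelihood test 0 of 8 members were called in F, in M or over both, 0 had an unadjusted p under 0.05, and DESeq2 called 0. Of all tested genes 0% were called in each. The changes of the 8 members ran from -0.11 to 0.04 on the log2 scale in F and from -0.11 to 0.02 in M. For Ndufs1 the 95% interval was -0.10 to 0.13 in F and -0.19 to 0.07 in M, and for Ndufs6 it was -0.35 to 0.43 and -0.52 to 0.38, so changes of that size in the more variable members were not detectable with these samples.

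In KO under the letter M, Ndufs4 and Ndufa12 were higher with CP2 than with vehicle. In F 0 of 8 were called in edgeR's quasi-likelihood test, 0 had an unadjusted p under 0.05 and DESeq2 called 0, beside 0.0859% of all tested genes called by edgeR, and the changes ran from -0.07 to 0.13. In M 2 of 8 were called, both higher, beside 5.1% of all tested genes in either direction and 2.36% higher. The median change over the members was 0.31 on the log2 scale in M, with 7 of 8 above 0, and that over all tested genes was 0.00039. The share of all genes rests on single samples: 1306 genes were called, and 225 without the vehicle sample L322. Over both letters 0 of 8 were called, beside 3.91% of all tested genes, 4 had an unadjusted p under 0.05 and DESeq2 called 0. Without L298, Ndufs4 was called over both letters.

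Ndufs4 in KO M was at 27.4, 27.5 and 29.5 CPM with vehicle and, as given above, at 29.6 to 39.1 CPM with CP2. The groups did not overlap, by 29.5 against 29.6 CPM, as for 15.3% of all tested genes, and the 4 other CP2 samples were at 35.8 CPM or more. The rise was 0.34 on the log2 scale (SE 0.099, 95% interval 0.14 to 0.54, adjusted p = 0.0368 in edgeR's quasi-likelihood test). Ndufa12 was at 59.0, 48.6 and 46.7 CPM with vehicle and 66.8, 66.2, 67.2, 56.7 and 65.2 CPM with CP2. The 2 groups overlapped through the highest vehicle and the lowest CP2 sample. It rose by 0.33 (SE 0.10, 95% interval 0.12 to 0.53, adjusted p = 0.0488 in the same test). Ndufa2 differed by 0.46 (95% interval 0.05 to 0.88, adjusted p = 0.198), Ndufs6 by 0.40 (-0.06 to 0.85), Ndufv3 by 0.30 (-0.02 to 0.62) and Ndufv2 by 0.18 (0.03 to 0.33), and none of these was called. Ndufv1 and Ndufs1 differed by 0.04 and -0.02.

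These 2 calls rest on 3 vehicle samples. Without L291 neither was made (0.33 with adjusted p = 0.0625 for Ndufs4 and 0.31 with adjusted p = 0.0892 for Ndufa12), and of the 8 fits that each left out 1 sample, 1 kept Ndufs4 (that without L298) and 2 kept Ndufa12 (those without L298 or the vehicle sample L310). The share of reads outside genes moved with the treatment here, from 12.1% ± 0.885 (SD, n = 3) with vehicle to 7.33% ± 1.40 (SD, n = 5) with CP2, and with it as a covariate the change of Ndufs4 was 0.29 (adjusted p = 0.493). The summed level of the 6 oligodendrocyte markers was 7825 to 9218 CPM with vehicle and 8209 to 15116 CPM with CP2, and that of the 6 microglial markers was 219.7 to 270.4 and 256.1 to 326.3 CPM. The 7 neuronal markers summed to 5353 to 5557 and 4652 to 5561 CPM, and the 5 choroid plexus markers to 588.6 to 1102 and 193.7 to 2762 CPM. Each of these markers was detected in every sample. The part of these cell markers in the result was not tested.

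The interaction of genotype and CP2 was positive for all 8 members in M, with a median of 0.34 on the log2 scale beside -0.01 over all tested genes. This was not shown to be particular to the N module. In M it was above 0 for 8 of 8 Q-module (median 0.21) and 20 of 20 nuclear membrane-arm subunits (0.36). So it was for 12 of 13 genes of iron-sulfur cluster assembly (0.26) and 6 of 7 core subunits of mitochondrial DNA (0.20). Fewer were above 0 among genes for N-module assembly and turnover (4 of 6) and flavin mononucleotide supply (2 of 5). The comparison shares its KO samples with that of CP2 in KO. Among the 8 members the interaction was largest for Ndufa2 (0.55, 95% interval -0.03 to 1.13), Ndufs6 (0.47, -0.17 to 1.102), Ndufv3 (0.41, -0.04 to 0.85) and Ndufa12 (0.36, 0.08 to 0.65). In edgeR's quasi-likelihood test 0 of 8 were called in M, where 3 had an unadjusted p under 0.05 and DESeq2 called 0, beside 1.98% of all tested genes called by edgeR. The smallest adjusted p was 0.174, for Ndufa12 and Ndufv2. Without the WT vehicle M sample L303, which was low for most members, both were called. In F 0 of 8 were called, beside 0% of all genes. Over both letters 0 of 8 were called, beside 0.715% of all genes. In the edgeR fit that adjusts for reads outside genes, 0 of all genes were called for the interaction in M, beside 507 without that adjustment. Over both letters 0 were called there, beside 183. Of the F minus M differences of KO against WT with vehicle, of KO against WT under CP2, of CP2 in KO and of CP2 in WT, 0 of 8 were called in the same test and by DESeq2, beside 0.102%, 0.82%, 0.691% and 0% of all genes called by edgeR, with an unadjusted p under 0.05 for 3 members in KO against WT under CP2 and for 2 in CP2 against vehicle in KO.

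Of the 5 accessory subunits, 4 varied as a block from sample to sample. With each group's mean removed, the deviations of log2 CPM over the 36 samples correlated at r = 0.91 between Ndufs6 and Ndufa2, 0.88 between Ndufv3 and Ndufa2, 0.86 between Ndufs6 and Ndufv3, 0.83 between Ndufa12 and both Ndufs6 and Ndufa2, and 0.78 between Ndufv3 and Ndufa12. Ndufs1 stood outside this block, at r from -0.09 to 0.13 with its 4 members, and went most with Ndufv2 (0.53). Ndufv1 went with the block more loosely, at 0.54 to 0.66. Ndufs4 lay between, at 0.28 with Ndufs1 and 0.46 to 0.53 with the rest. These values are descriptions, and the members' levels within a sample share its library and depth.

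Single samples show the block. The WT CP2 F sample L228 was the highest of the 36 for Ndufs6 (50.7 CPM), Ndufa2 (80.2 CPM), Ndufv3 (59.6 CPM) and Ndufa12 (86.7 CPM), while its Ndufs1, at 134 CPM, was near the median. The WT vehicle M sample L303 was the lowest of the 36 for Ndufs6 (14.3 CPM), Ndufa2 (28.2 CPM), Ndufv3 (30.6 CPM) and Ndufv2 (93.4 CPM). Without these 2 samples the 6 correlations within the block were 0.73 to 0.88 (n = 34). The block was not shown to be particular to the N module. Genes outside it, among them Ndufa3 of the membrane arm (r = 0.95) and Cox5b (r = 0.97), also went with the mean of the 7 members other than Ndufs4. Those 2 values are of log2 CPM with group differences left in. The share of reads outside genes, with group means removed, correlated with the block's members at -0.26 to -0.04 and with Ndufs1 at -0.58 (n = 36).

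**Figure D4:**
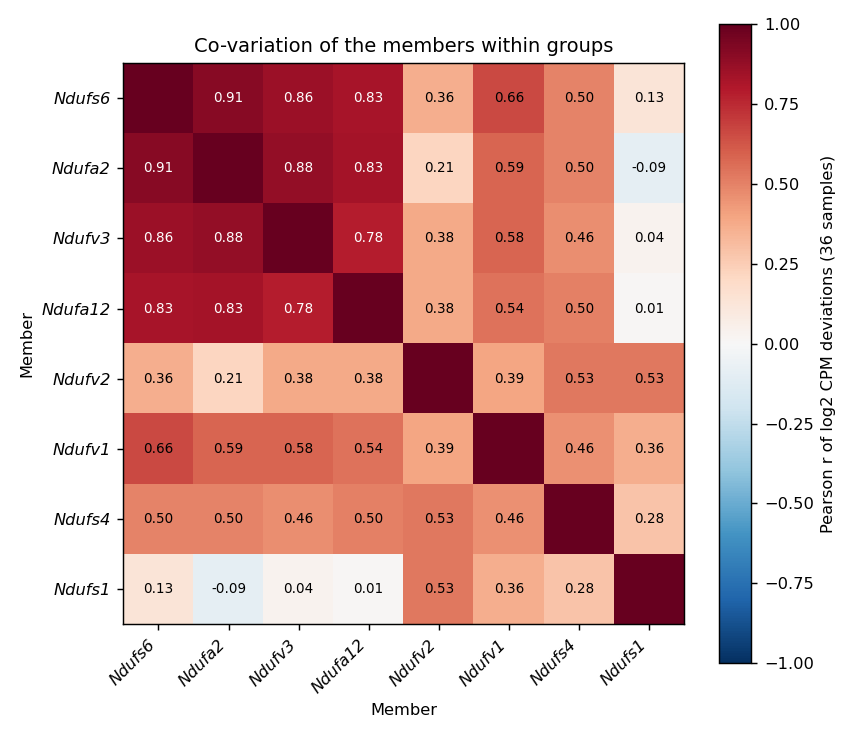
Pearson r between members of the deviations of log2 CPM from the group mean over 36 samples, as a colour scale from -1 to 1 with the value in each cell. The 4 accessory subunits Ndufs6, Ndufa2, Ndufv3 and Ndufa12 form a block at 0.78 to 0.91, and Ndufs1 lies at -0.09 to 0.13 with them.

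Genes with the most similar pattern over the samples differed between Ndufs4 and the other members. By the Pearson correlation of log2 CPM over the 36 samples, among 15413 genes with a mean of at least 1 CPM, the 5 nearest to the mean of the 7 were Cox5b (0.97), Romo1 (0.96), Ndufa3 (0.95), Prdx5 (0.95) and Rpl41 (0.95). Ndufs4 came at rank 3103 with r = 0.34. The 5 nearest to Ndufs4 itself, among 15419 genes, were Mfge8 (0.82), Nr1h2 (0.80), Ahsa1 (0.80), Atp5d (0.79) and Ubl4a (0.79). The nearest member was Ndufa12, at rank 260 with r = 0.63, and Ndufv1 was at -0.11. All of these values include the differences between genotypes.

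Of the 6 genes for assembly and turnover of the N module (Ndufaf2, Nubpl, Lyrm2, Clpp, Clpx, Lonp1), 1 fell in KO with vehicle and over all strata, Ndufaf2, and 0 rose. Ndufaf2 is the paralogue of Ndufa12 that holds its place on the unfinished complex. With vehicle in F it was at 9.65, 9.12, 9.70, 11.5 and 8.47 CPM in KO and 11.7, 11.4, 12.8, 15.7 and 12.9 CPM in WT. With vehicle in M it was at 8.81, 7.23 and 6.52 CPM in KO and 12.8, 11.96 and 8.91 CPM in WT. The highest KO sample in F overlapped the lowest WT sample by 11.5 against 11.4 CPM, and the groups in M did not overlap.

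Ndufaf2 fell by 0.49 on the log2 scale with vehicle over both letters (SE 0.10, adjusted p = 0.00209 in edgeR's quasi-likelihood test) and by 0.30 over all strata (SE 0.067, adjusted p = 0.0014). Both calls held in every fit that left out 1 sample, 16 of 16 and 36 of 36. In the fit that adjusts for reads outside genes the difference with vehicle was -0.34 (adjusted p = 0.123) and that over all strata stayed called (adjusted p = 0.00277). Under CP2 it differed between KO and WT by -0.11 (adjusted p = 0.506), and in KO M it rose with CP2 by 0.54 (SE 0.15, adjusted p = 0.0217), also without L291 (0.56, adjusted p = 0.0297), a call kept in 4 of 8 fits that left out 1 sample and not made with the covariate (adjusted p = 0.695). Lyrm2, a small protein of the assembly of the N module, was higher with CP2 in KO (0.38, SE 0.098, adjusted p = 0.0201) and rose in KO against WT among the CP2 samples (0.31, SE 0.090, adjusted p = 0.0180).

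**Figure D5:**
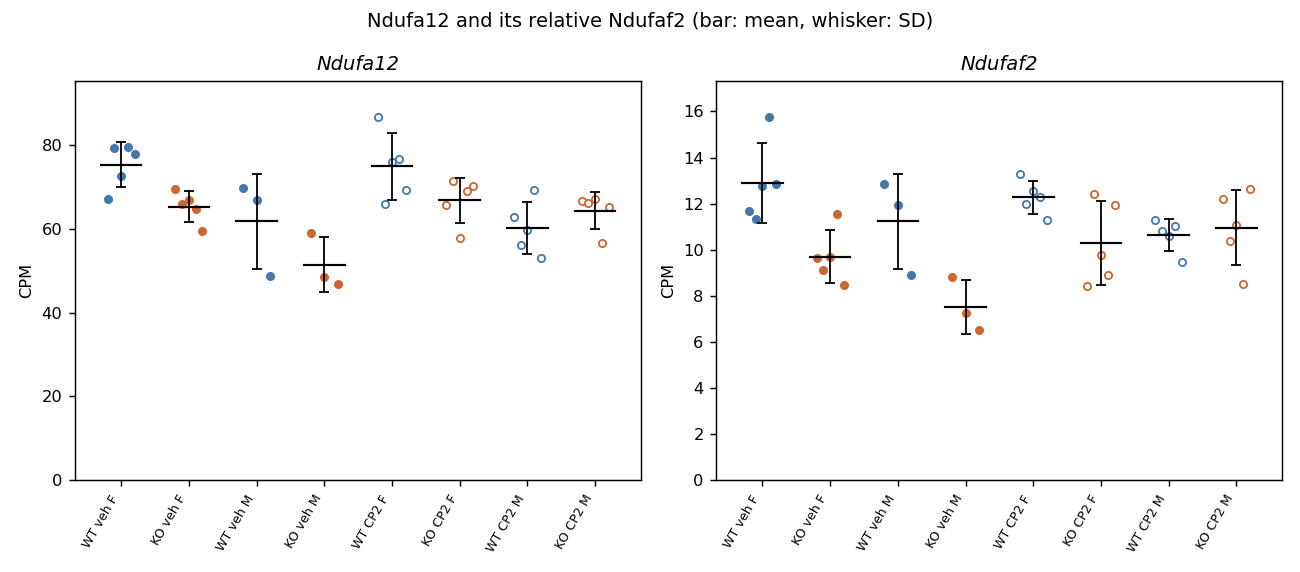
CPM of Ndufa12 (left) and Ndufaf2 (right) in every sample (points; blue WT, orange KO, filled vehicle, open CP2), with mean (bar) and SD (whisker) per group and axes that start at 0. In both panels KO vehicle M is the lowest group, at 51.4 ± 6.59 and 7.52 ± 1.17 CPM, and KO CP2 M is not below WT CP2 M.

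Other parts of complex I also held called genes. Of 8 Q-module subunits, 1 was called over all strata, Ndufa6 (0.13, SE 0.043, adjusted p = 0.0341 in edgeR's quasi-likelihood test), and 0 were called with vehicle or for CP2 in KO. Of 20 nuclear membrane-arm subunits, 4 fell in KO with vehicle, led by Ndufc1 (-0.35) and Ndufb2 (-0.36), and 0 rose. Over all strata 2 fell and 2 rose, led by Ndufb2 (-0.26), Ndufc1 (-0.21) and Ndufb9 (0.18). With CP2 in KO, 4 rose over both letters and 6 in M, among them Ndufc1 (0.29 over both) and Ndufb9 (0.40 in M). The median of the 20 in KO M was 0.33, beside 0.31 for the N module.

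Of the 7 core subunits encoded in mitochondrial DNA, 2 rose in KO over all strata, mt-Nd6 (0.36) and mt-Nd5 (0.29), and mt-Nd2 fell by 0.25. With vehicle mt-Nd2 fell by 0.37, and among the CP2 samples mt-Nd6 (0.48) and mt-Nd5 (0.38) rose in KO. With CP2 in KO over both letters, 2 of the 7 rose, mt-Nd2 (0.27) and mt-Nd4 (0.24). The N module carries most iron-sulfur clusters of the complex, and of 13 genes for cluster assembly 1 rose over all strata, the co-chaperone Hscb (0.39, SE 0.089, adjusted p = 0.00181 in edgeR's quasi-likelihood test), and 3 fell, among them the ferredoxin reductase Fdxr (-0.28). With CP2 in KO 1 rose, Bola3 (0.27 over both letters and 0.43 in M). Of 5 genes for the supply of flavin mononucleotide 0 were called over all strata, and riboflavin kinase, Rfk, rose with CP2 in KO (0.22, SE 0.062, adjusted p = 0.0329 in the same test). The counts of each list stand beside the shares of all genes given above for the same comparisons. With the share of reads outside genes in the fit, edgeR called 0 of all genes for CP2 in KO over both letters (1931 at an unadjusted p under 0.05) and 0 in M (2297), so none of the CP2 calls in KO for Lyrm2, the membrane arm, the mitochondrial genes, Bola3 or Rfk was made there. For KO against WT with vehicle over both letters, that fit called 146 genes higher and 145 lower, beside 736 and 972 without the covariate. Whether the vehicle calls of the membrane arm and of mt-Nd2 were among them is not reported here. With vehicle, the mean share was 9.24% in F and 12.1% in M for KO, and 5.99% and 10.2% for WT.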

How the data were processed

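PolyA-selected RNA of 36 mouse brain samples was sequenced from Illumina TruSeq libraries, per the labels' protocols. The authors deposited raw read counts for each Ensembl gene in 1 table, made with STAR and HTSeq on build GRCm39, per the submitters' processing notes. Versions, strandedness and annotation release are not given in the sources used here. The 5 summary rows stayed out of library sizes, and the row for reads outside genes gave a share of 5.09% to 13.2% of each sample's reads. Symbols and exon lengths came from GENCODE M21, which is on another build, so no gene coordinates are given from it. Promoter windows are from RefSeq on GRCm38.p6.

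Counts were fitted in edgeR 4.0.16 (R 4.3.3) with TMM scaling, filterByExpr, 1 coefficient for each of the 8 groups over all 36 samples and a robust quasi-likelihood fit. P-values were adjusted by Benjamini-Hochberg over all 25601 tested genes in each comparison, and a call is an adjusted p under 0.05. The median change over all genes lay within 0.04 of 0 on the log2 scale in each comparison. Log2 CPM used a prior count of 2. The fit was tested on simulated counts. The alternatives were DESeq2 1.42.0 size factors or its Wald test, no filter, a mean CPM of at least 1, separate fits for the letters, adjustment for reads outside genes, and leaving out each sample. Depth was 46124548 to 88559920 gene counts per sample, and the 66 within-group sample pairs correlated at 0.991 to 0.998, with 0 identical.

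Members and lists were chosen with earlier results of these data known. All members were named. From each pathway list at most 3 called genes per comparison with the smallest adjusted p could be named, and the 5 genes most alike in pattern were taken. Pathway lists matched 20 of 21 membrane-arm and 13 of 14 cluster-assembly genes.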

Additional observations from a re-analysis of the deposited data

Results flagged for a closer look

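In KO CP2 M the Ndufa12 level of sample L298, 56.7 CPM, stood apart below the other 4 samples, which lay between 65.2 and 67.2 CPM, by Dixon's test. Of the 48 groups of 5 samples checked this was the 1 past the critical value, and chance flags about 1 in 20.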

How the results depend on the processing

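Ndufs4 stayed lower and called in KO against WT over all strata, with vehicle, under CP2, and in each stratum under all other settings that could be fitted. Leaving out 1 sample gave -0.57 to -0.53 over all strata, and in M with vehicle -0.75 to -0.57 on the log2 scale, where 2 of 6 such fits lost the call. The number of members called for CP2 in KO M, 2 as reported, was 1 with DESeq2 size factors, with the filter at a mean CPM of 1 or with letters fitted separately, and 0 with the covariate for reads outside genes, under which 0 of all genes were called (2297 at an unadjusted p under 0.05). For KO against WT under CP2 it was 2 instead of 1 with DESeq2 size factors or its Wald test and 3 with the filter at a mean CPM of 1. In M under CP2 it was 2 instead of 1 with the Wald test or separate letters, and with vehicle it was 1 instead of 2 with the covariate. Leaving out 1 sample in turn gave 0 to 3 members called for CP2 in KO M, 0 to 1 for CP2 in KO, 0 to 2 for the interaction in M, 1 to 3 for KO against WT over all strata and for M under CP2, 1 to 2 under CP2 and with vehicle, and 0 to 1 with vehicle in M. The cause of these changes was not tested. The value of Ndufa2 over all strata, 0.04, became -0.0168 without L303, and without 1 sample in turn it ran from there to 0.0829. Median levels per kb of the longest transcript in place of all exons were 23.0 for Ndufs4, 49.7 for Ndufs1, 77.0 for Ndufv1, 69.0 for Ndufv2 and 23.1 for Ndufv3. Without 1 sample in turn, the count of all genes called ran from 225 to 1755 for CP2 in KO M (1306 with all samples), from 190 to 1534 for CP2 in KO over both letters (1002), from 729 to 2169 for KO against WT with vehicle (1708), from 573 to 2014 with vehicle in F (1270), from 140 to 935 under CP2 in F (511), from 1465 to 2669 under CP2 in M (2558), and from 33 to 865 for the interaction in M (507). The lowest of the first 3 came without KO vehicle M L322. With vehicle in M 132 genes were called by edgeR, 0 without L285 (2210 at an unadjusted p under 0.05), 5 without L300, 9 without L322 and 77 without L319. Each member had at least 738 counts in every sample. No paired analysis was possible because no replicate number is shared between groups.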
